A study of Mus musculus with 8 samples.

Results

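Interleukins and their receptors were examined in the pancreas of mice with a genetic model of pancreatic cancer. Members were all protein-coding genes whose symbol starts with Il and a digit in the GENCODE M21 annotation of the mouse genome build GRCm38, which gave 84 genes among 29621 with a transcript in the deposited files. The 84 include ligands, receptor chains, the antagonists Il1rn and Il18bp, and genes that carry the symbol without belonging to a cytokine family, such as Il4i1. The symbol Il11ra2 names 3 near-identical copies that share reads. The rule used the gene's name alone and no measured value.

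C57BL/6 mice were sampled at postnatal day 42, and total RNA of the whole pancreas was sequenced after ribosomal depletion. The KPC-OG group, 4 libraries, came from p48-Cre mice with an oncogenic allele that Cre switches on, Trp53fl/fl and R26tm1(LSL-OG), and the series title calls the model antigenic. The KPC group, 4 libraries, carried p48-Cre, the oncogenic allele and Trp53fl/fl but not the R26 allele, so both groups lacked intact Trp53 in recombined cells and differed by the R26 allele. Cre under p48, the Ptf1a locus, acts in the epithelial lineage of the pancreas and not in the immune or stromal cells that make and sense most interleukins. The labels do not say whether each library is 1 animal, so a p-value speaks only of the spread among the 8 libraries, which may be technical. The comparison asks how the interleukin genes differ between pancreata with and without the R26 allele.

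Interleukins are secreted proteins through which immune, stromal and epithelial cells signal to each other. The IL-1 family (IL-1α, IL-1β, IL-18, IL-33) signals through receptors that pair with an accessory protein and recruit MyD88 and IRAK kinases, and it is held in check by a receptor antagonist and by decoy and binding proteins. Most other interleukins signal through JAK kinases and STAT factors by way of shared chains: the common gamma chain (Il2rg), the common beta chain (Csf2rb), gp130 (Il6st), and IL-10Rβ (Il10rb). IL-17 receptors form a separate family that acts mainly on epithelium and fibroblasts. In the pancreas with oncogenic lesions, acinar tissue is replaced by duct-like epithelium, fibroblasts and macrophages.

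The libraries held 13411366 to 18026719 gene-assigned reads in KPC-OG and 7061327 to 10847103 in KPC. Levels are given as CPM, reads divided by a TMM-scaled library total, where TMM is a scaling that compares libraries through the bulk of their genes. Its factors were 1.14 to 2.28 in KPC-OG and 0.483 to 0.653 in KPC, so 1 read was worth 0.0259 to 0.0655 CPM in KPC-OG and 0.169 to 0.265 CPM in KPC, and low values are less precise in KPC. The summed level of 10 acinar markers was 47740 to 186500 CPM in KPC-OG and 334200 to 544500 CPM in KPC, and 8 of the 10 fell in KPC-OG. Libraries KPC-OG 2 and KPC-OG 3 stood apart by liver transcripts, with summed markers of 316 and 380 CPM, against 26.6 and 29.5 CPM in the other KPC-OG libraries and 16.7 to 31.1 CPM in KPC. Libraries KPC-OG 2, KPC 2 and KPC 4 carried the most T cell and B cell transcripts, described with the lymphocyte receptors. In whole tissue, fewer cells of a type and less RNA per cell cannot be told apart.

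The interleukin genes that differed were mostly higher in KPC-OG. Of the 84 genes, 46 passed the filter on low counts and were tested, and 38 did not, 11 of them without a read in any library. In edgeR's quasi-likelihood test at a Benjamini-Hochberg adjusted p under 0.05, 9 rose, a share of 19.6% against 17.4% of the 14267 genes tested, and 2 fell, a share of 4.35% against 16.6% of those genes. The share that rose was near the background, and the share that fell was below it. The median log2 fold change over the tested interleukin genes was 0.52, against 0.09 over all tested genes, and 37 of the 46 had a positive value. A gene with few reads could pass the filter through KPC-OG alone, so this median, the positive count and the low share that fell may be partly built in. After thinning to equal effective size 30 members were tested. Of these 7 rose (23.3%, background 15.7%) and 2 fell (6.67%, background 15.6%). The groups did not overlap in 10 genes with KPC-OG above (21.7%, against 17.6% of all tested genes) and in 3 with KPC-OG below (6.52%, against 17.0%). Scaling by library size alone moved the median gene by 1.74 on the log2 scale and called 44 of the 46 higher and 0 lower (91.7% and 0.694% of all tested genes), so every fold change here is relative to the bulk of genes. Without KPC-OG 2 and KPC-OG 3, 8 genes rose (background 14.7%) and 1 fell (background 12.3%). With library sizes re-centred on the median gene 6 rose (background 6.43%) and 1 fell (9.81%). The fits on log2(TPM + 1) gave 4 that rose (6.92%) and 3 that fell (11.2%), and those on log2(TPM + 0.1) gave 5 (4.32%) and 1 (7.07%).

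**Figure D1:**
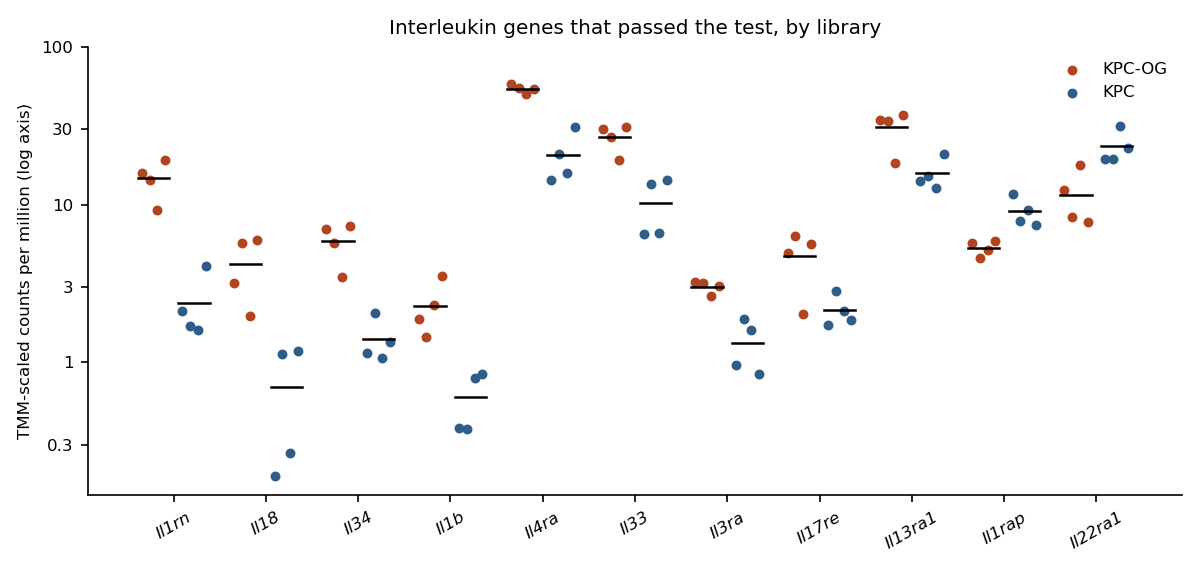
TMM-scaled CPM on a log axis for the 11 interleukin genes past the test, ordered by fold change, with 1 point per library (KPC-OG left, KPC right of each name) and a line at the group mean. The groups do not overlap for any of the 11 except Il17re and Il13ra1, and Il1rap and Il22ra1 are the 2 lower in KPC-OG.

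Of 14 tested IL-1 family genes 4 rose, 3 of 5 ligands and 1 of 3 antagonists or binding proteins (background 17.4%), and 1 fell (background 16.6%). Il1rn (2:24336853-24351494) encodes the IL-1 receptor antagonist, which occupies the IL-1 receptor without triggering it. It was at 15.8, 14.2, 9.30 and 19.3 CPM in the 4 KPC-OG libraries and at 2.10, 1.69, 1.59 and 4.05 CPM in the 4 KPC libraries. Every KPC-OG library was above every KPC library. Il1rn had the largest called change of the 46, a log2 fold change of 2.60 ± 0.32 (SE, adjusted p = 7.4e-04).

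Il1rn is transcribed from alternative first exons that give a secreted and an intracellular form of the antagonist, and reads were assigned to both starts. The windows below are RefSeq promoters of GRCm38.p6, plus strand, 250 bases before and 50 bases from the start on, which are in capitals. The first is chr2:24336610-24336909 and the second chr2:24345041-24345340, and they are shown because the read split concerns these starts.
Il1rn upstream start: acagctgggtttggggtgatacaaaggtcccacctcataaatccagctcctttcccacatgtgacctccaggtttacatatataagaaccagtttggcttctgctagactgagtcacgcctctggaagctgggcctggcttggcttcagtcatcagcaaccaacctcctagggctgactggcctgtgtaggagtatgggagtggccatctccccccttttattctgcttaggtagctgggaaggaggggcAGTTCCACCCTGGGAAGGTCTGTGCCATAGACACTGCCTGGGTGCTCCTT
Il1rn downstream start: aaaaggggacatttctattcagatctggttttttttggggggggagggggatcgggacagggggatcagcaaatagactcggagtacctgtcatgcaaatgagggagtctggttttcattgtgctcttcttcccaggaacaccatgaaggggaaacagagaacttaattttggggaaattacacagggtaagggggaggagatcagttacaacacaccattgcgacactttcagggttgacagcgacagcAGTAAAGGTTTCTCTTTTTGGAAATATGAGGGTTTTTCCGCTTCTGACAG
In KPC-OG, transcripts from the upstream start held 50.3%, 52.5%, 46.5% and 57.7% of Il1rn reads by library. In KPC they held 0%, 0%, 29.1% and 100%, where the upstream start had 25.1 and the downstream start 24.2 estimated reads over all 4 libraries. The pooled share was 53.3% in KPC-OG and 51.0% in KPC. The KPC shares are too thinly covered to show a difference between genotypes in start use. The split is an estimate by Sailfish from bases that only some transcripts hold, and no interval for it is given.

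Il1b (2:129364570-129371139), the inflammatory cytokine that the antagonist blocks, was at 1.89, 1.45, 2.29 and 3.51 CPM in KPC-OG and at 0.382, 0.376, 0.796 and 0.844 CPM in KPC. Its groups did not overlap, and it rose by 1.93 ± 0.46 (adjusted p = 0.0102). With limma-voom that call was not made (adjusted p = 0.141), nor was it on log2(TPM + 1). Il1a, the sister cytokine that is active without cleavage, was at 3.32, 3.89, 1.51 and 3.16 CPM in KPC-OG and at 0, 1.69, 0.265 and 1.86 CPM in KPC, a log2 fold change of 1.57 ± 0.66 that did not pass (adjusted p = 0.0898).

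Antagonist and cytokine were also set against each other within a library, as the ratio of their read counts. Il1rn held 8.39, 9.82, 4.06 and 5.5 reads for each Il1b read in KPC-OG, and 5.5, 4.5, 2.0 and 4.8 in KPC. The ranges overlapped. The log2 ratio averaged 2.70 ± 0.58 in KPC-OG and 1.79 ± 0.61 in KPC (SD, n = 4 each), a difference of 0.91 (exact two-sided permutation p = 0.0857, and 0.0857 adjusted over 2 ratios) that missed the threshold. Without KPC-OG 3 the difference was 1.14 and passed (adjusted p = 0.0286, exact permutation).

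Il18 (9:50554827-50581840), a cytokine matured by caspase-1 that many epithelia make, was at 3.17, 5.68, 1.96 and 5.95 CPM in KPC-OG and at 0.191, 1.13, 0.265 and 1.18 CPM in KPC. The groups did not overlap, and Il18 rose by 2.53 ± 0.56 (adjusted p = 0.0068). The KPC values rest on 1 to 7 reads a library, limma-voom did not make the call (adjusted p = 0.108), and the gene overlaps Bco2 on the opposite strand, whose reads also were more numerous in KPC-OG. Its soluble inhibitor Il18bp was at 2.80, 3.52, 3.14 and 2.89 CPM in KPC-OG and at 2.29, 5.45, 1.86 and 3.04 CPM in KPC, and its log2 fold change was -0.05 ± 0.32 (adjusted p = 0.919). Il18bp overlaps the more abundant Numa1 on the opposite strand.

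The ratio of Il18bp to Il18 reads was 0.885, 0.621, 1.6 and 0.485 in KPC-OG and 12, 4.83, 7.0 and 2.57 in KPC. The inhibitor thus had more reads than the cytokine in every KPC library and in 1 of the 4 KPC-OG libraries. The Il18bp transcript is longer (1400 bases, against 702 for Il18). Per transcript length Il18bp was above Il18 in every KPC library and below it in all 4 KPC-OG libraries. The mean log2 ratio was -0.31 ± 0.74 in KPC-OG and 2.22 ± 0.72 in KPC (SD, n = 4 each). The difference of -2.52 had the smallest p that 4 against 4 can give (exact two-sided permutation p = 0.0286), and 0.0571 after adjustment over 2 ratios, which misses the threshold. Without KPC-OG 3 the adjusted p was 0.0286 by the same permutation test, over fewer arrangements. The unadjusted p of this ratio was 0.0286 with and without that library. The adjusted p changed because the Il1rn to Il1b ratio also reached the smallest p possible. The other 4 pairs planned (Il1rn to Il1a, Il1r2 to Il1r1, Il13ra2 to Il13ra1 and Il22ra2 to Il22ra1) had a library without a read and were not computed.

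**Figure D2:**
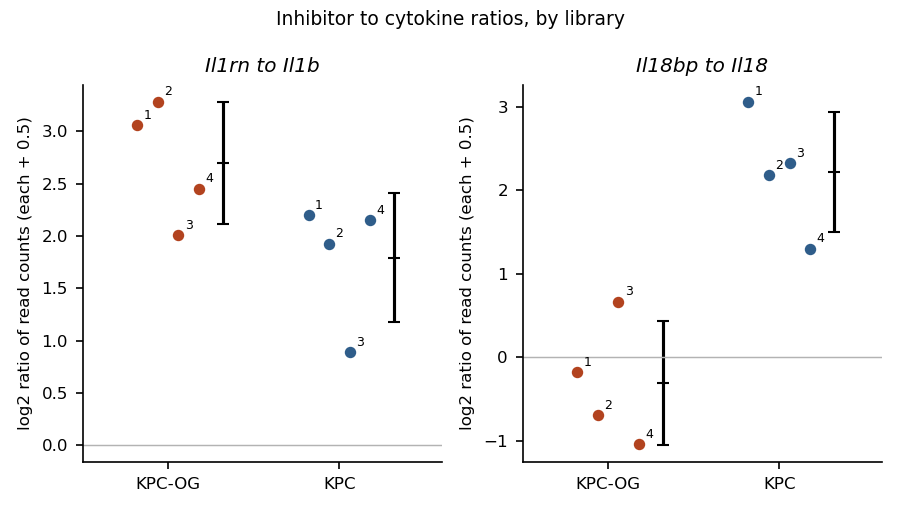
Log2 ratio of read counts (0.5 added to each) of Il1rn to Il1b and of Il18bp to Il18, 1 numbered point per library, KPC-OG left of KPC, with mean and SD beside the points. The Il1rn to Il1b values overlap between genotypes, and all 4 KPC-OG values of Il18bp to Il18 lie below all 4 KPC values.

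Il33 (19:29925114-29960718), an alarmin that damaged epithelium and fibroblasts release, was at 30.2, 26.8, 19.1 and 31.2 CPM in KPC-OG and at 6.49, 13.5, 6.63 and 14.4 CPM in KPC. Per transcript length it had the highest mean level of the family's ligands in both groups, and the groups did not overlap. It rose by 1.37 ± 0.27 (adjusted p = 0.0047), a call that the fits on log2(TPM + 1) and log2(TPM + 0.1) did not make (adjusted p = 0.0759 and 0.214). A pair of annotated starts share its reads, printed because the estimated split between them differed from library to library. They are chr19:29924863-29925162 and chr19:29945540-29945839 of GRCm38.p6 in RefSeq, plus strand, with the 50 bases from the start on in capitals.
Il33 upstream start: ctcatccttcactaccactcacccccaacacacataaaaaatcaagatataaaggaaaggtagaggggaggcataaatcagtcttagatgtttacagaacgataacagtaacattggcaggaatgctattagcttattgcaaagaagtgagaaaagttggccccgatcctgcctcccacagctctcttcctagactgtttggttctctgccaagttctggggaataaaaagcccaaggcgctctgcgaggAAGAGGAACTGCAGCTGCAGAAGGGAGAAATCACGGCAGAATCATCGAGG
Il33 downstream start: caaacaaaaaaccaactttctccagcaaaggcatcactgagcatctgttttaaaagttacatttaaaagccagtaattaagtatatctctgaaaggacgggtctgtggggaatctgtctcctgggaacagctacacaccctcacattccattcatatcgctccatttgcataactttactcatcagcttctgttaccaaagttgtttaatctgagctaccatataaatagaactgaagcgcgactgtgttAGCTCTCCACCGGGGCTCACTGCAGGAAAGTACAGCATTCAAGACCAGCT
The upstream start took 34.3%, 68.6%, 32.2% and 59.7% of Il33 reads in the KPC-OG libraries. It took 0%, 100%, 100% and 100% in the KPC libraries. The pooled share was 52.6% in KPC-OG and 84.3% in KPC, but 1 KPC library, KPC 1, assigned all its reads to the other start. Both genotypes thus held libraries that leaned to either start, and no direction is read from the pooled shares.

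Of the family's 6 tested receptor chains, 1 fell and none rose (background 16.6% and 17.4%). Il1rap (16:26581704-26730117), the accessory protein that IL-1, IL-33 and IL-36 receptors need to signal, was at 5.69, 4.61, 5.17 and 5.84 CPM in KPC-OG and at 11.7, 7.89, 9.29 and 7.43 CPM in KPC. Every KPC-OG value was below every KPC value, and the gene fell by 0.76 on the log2 scale (SE 0.19, adjusted p = 0.0111). Without KPC-OG 2 and KPC-OG 3 the change was -0.63 and missed the threshold (adjusted p = 0.0785), and with library sizes alone its sign turned (1.0). Il1rap also lost its call with library sizes re-centred on the median gene and on log2(TPM + 1) and log2(TPM + 0.1). Il1r1, the signalling IL-1 receptor, was at 17.8, 17.5, 14.7 and 20.1 CPM in KPC-OG and at 7.26, 9.58, 17.0 and 12.7 CPM in KPC (0.61 ± 0.23, adjusted p = 0.0613). It passed with DESeq2 (adjusted p = 0.0479), with limma-voom (adjusted p = 0.0421), and when KPC-OG 3 or KPC 3 was left out (adjusted p = 0.039 and 0.0178).

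Il1r2, the decoy receptor that binds IL-1 without signalling, was at 0.670, 0.492, 1.05 and 0.536 CPM in KPC-OG and at 0, 0.188, 0.265 and 0.338 CPM in KPC, a value of 1.72 ± 0.71 that did not pass (adjusted p = 0.0856). Il18r1, the ligand-binding chain for IL-18, gave 0.73 ± 0.42 (adjusted p = 0.20). Il1f9, an IL-36 cytokine, gave 0.11 ± 0.54 (adjusted p = 0.894). The remaining tested receptors were Il1rl1, the IL-33 receptor, Il18rap and Il1rl2, with log2 fold changes of 0.66 to 1.06 and no call. They were named after their values were seen, to complete the family. Il1f6, another IL-36 cytokine, and the receptor-like gene Il1rapl1 had too few reads to test, and Il1f5, Il1f8, Il1f10 and Il1rapl2 had none.

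Genes that mature IL-1 and those that relay its signal were taken from separate lists. Of 8 tested processing genes, 3 rose and none fell (median 1.11, background 17.4% and 16.6%). They were Gsdmd, the pore-forming protein through which mature IL-1β leaves the cell, at 12.5 ± 1.5 CPM in KPC-OG and 4.61 ± 1.38 CPM in KPC (SD, n = 4 each, log2 fold change 1.43 ± 0.22, adjusted p = 0.00137), and the inflammasome sensors Nlrc4 (1.38 ± 0.36, adjusted p = 0.0145) and Nlrp3 (2.29 ± 0.73, adjusted p = 0.0343). Nlrc4 and Nlrp3 lost their calls with re-centred library sizes (adjusted p = 0.0766 and 0.0697), and Nlrp3 without KPC-OG 2 and KPC-OG 3 (adjusted p = 0.101). Of 14 tested signalling genes, 2 rose and 4 fell (median -0.05, background 17.4% and 16.6%). The kinase Irak1 averaged 46.8 ± 11.0 CPM in KPC-OG and 104 ± 21.4 CPM in KPC (SD, n = 4 each) and fell by 1.15 on the log2 scale (adjusted p = 0.00221). The inhibitor adaptor Tollip fell by 0.73 (adjusted p = 0.00243) and the kinase Map3k7, known as TAK1, fell by 0.61 (adjusted p = 0.00349). With re-centred library sizes 0 of the 14 rose and 2 fell.

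**Figure D3:**
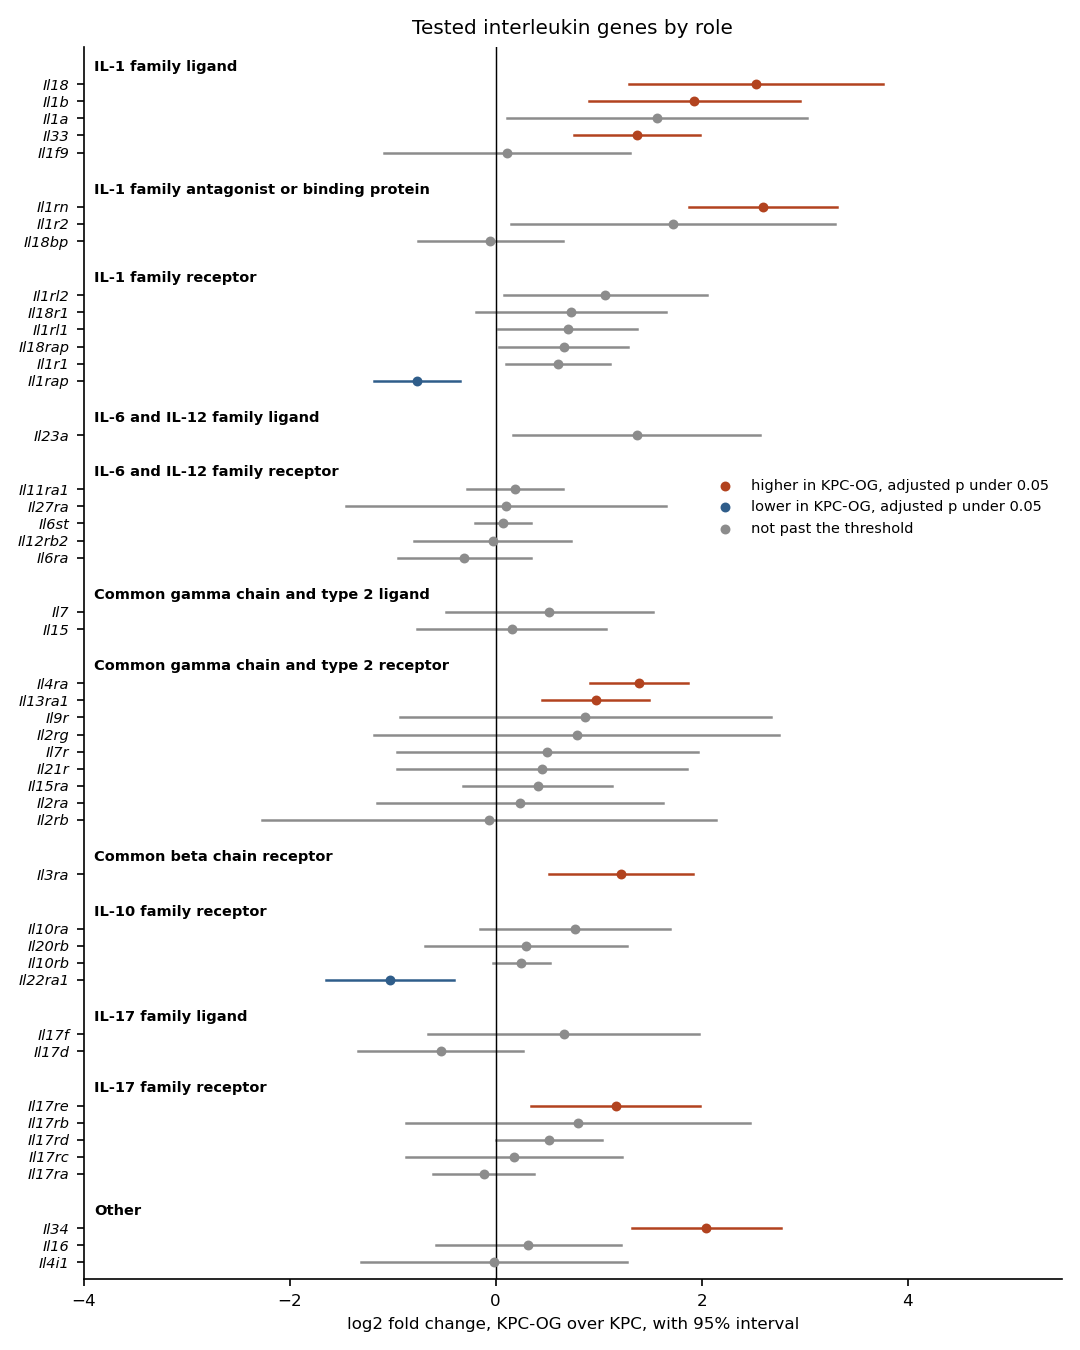
Log2 fold change of KPC-OG over KPC with its 95% interval for the 46 tested interleukin genes, grouped by role, with coloured points for genes past the threshold. Il1rn, Il18 and Il34 lie farthest to the right, Il1rap and Il22ra1 are the called genes left of 0, and Il2rb has one of the widest intervals while that of Il6st is narrow around 0.07.

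Both chains of the type II receptor for IL-4 and IL-13 rose. This receptor, IL-4Rα with IL-13Rα1, is the form found on epithelium, fibroblasts and macrophages, and it signals through STAT6. Il4ra (7:125552120-125579474) was at 58.2, 54.9, 50.6 and 53.8 CPM in KPC-OG and at 14.3, 21, 15.9 and 31.1 CPM in KPC. The KPC-OG libraries lay close together and above all KPC libraries (1.39 ± 0.22, adjusted p = 0.00148). Il13ra1 (X:36112110-36171259) was at 34.6, 33.9, 18.4 and 37.2 CPM in KPC-OG and at 14.1, 15.2, 12.7 and 20.9 CPM in KPC. KPC-OG 3 fell within the KPC range and the other KPC-OG libraries above it (0.97 ± 0.24, adjusted p = 0.0108). That call was not made with library sizes re-centred on the median gene (adjusted p = 0.0927), nor on log2(TPM + 1) and log2(TPM + 0.1).

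The promoters of this pair are shown because a script found in both a match to GGGNNTTCC, a core of the NF-κB motif. The Il4ra window is chr7:125552021-125552320 and the Il13ra1 window chrX:36111858-36112157 of GRCm38.p6 in RefSeq, both plus strand, and capitals mark the match, which in Il4ra reads on the minus strand.
Il4ra: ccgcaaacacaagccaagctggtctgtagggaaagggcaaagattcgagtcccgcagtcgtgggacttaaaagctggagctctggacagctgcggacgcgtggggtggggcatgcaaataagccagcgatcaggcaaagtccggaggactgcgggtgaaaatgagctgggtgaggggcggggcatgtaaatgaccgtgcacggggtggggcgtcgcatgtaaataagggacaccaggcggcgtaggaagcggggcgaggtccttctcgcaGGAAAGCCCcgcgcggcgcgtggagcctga
Il13ra1: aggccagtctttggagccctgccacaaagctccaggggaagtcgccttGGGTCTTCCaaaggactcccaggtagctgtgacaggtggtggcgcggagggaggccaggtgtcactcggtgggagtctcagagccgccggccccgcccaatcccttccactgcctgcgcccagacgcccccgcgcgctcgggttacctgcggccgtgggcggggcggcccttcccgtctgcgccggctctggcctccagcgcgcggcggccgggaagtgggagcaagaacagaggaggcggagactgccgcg
The match lay 20 bases after the start in Il4ra and 202 bases before it in Il13ra1 (offset -202). Of 82 interleukin symbols, 65 had a promoter in the table. Searched on both strands, GGGNNTTCC was in 2 of 11 promoter windows of the genes that rose, in 3 of 67 windows of members not called and in 5.82% of the table's 32851 windows. The AP-1 motif TGANTCA was in 1 of the 11 windows (Il1rn), in 12 of the 67 and in 7.81% of all windows. It was also in 1 of the 2 windows of the genes that fell (Il22ra1), which held none of the other motifs. The STAT motif TTCNNNGAA was in 0 of the 11, in 10 of the 67 and in 8.30% of all. The C/EBP motif TTGCNNAA was in 2 of the 11 (Il33 and Il3ra), in 13 of the 67 and in 10.8% of all. Motifs were searched separately, so their matches may overlap, and a match describes letters in a window and not binding.

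The ligands of the type II receptor were at the edge of detection. Il4 had 4, 15, 3 and 3 reads in KPC-OG and 0, 3, 0 and 3 reads in KPC, and Il13 had 1.04 estimated reads in KPC-OG 4, 0.308 in KPC 3 and none in any other library. Of the Il4 reads, 14.5% in KPC-OG and 0% in KPC were assigned to protein-coding transcripts. The decoy receptor Il13ra2 had 0, 10, 8 and 0 reads in KPC-OG and 0, 0, 0 and 4 reads in KPC. Of 12 tested type 2 response genes, 7 rose and none fell (median 1.40, background 17.4% and 16.6%). With re-centred library sizes 4 rose and none fell. Arg1, the arginase of alternatively activated macrophages, averaged 14.1 ± 3.7 CPM in KPC-OG and 1.94 ± 0.18 CPM in KPC (SD, n = 4 each, log2 fold change 2.86 ± 0.24, adjusted p = 4.15e-04). Retnla, a secreted product of such macrophages, averaged 72.4 ± 16.5 CPM in KPC-OG and 23.3 ± 1.7 CPM in KPC (1.64 ± 0.17, adjusted p = 4.65e-04). Dclk1, a tuft cell kinase, averaged 28.3 ± 12.3 CPM in KPC-OG and 8.22 ± 0.73 CPM in KPC (1.78 ± 0.33, adjusted p = 0.00332). Among the 16 JAK, STAT and SOCS genes, 1 rose and none fell (background 17.4% and 16.6%): Socs3, a feedback inhibitor, averaged 26.2 ± 3.7 CPM in KPC-OG and 15.7 ± 4.8 CPM in KPC (0.72 ± 0.22, adjusted p = 0.0272). It lost its call with re-centred library sizes (adjusted p = 0.189), and DESeq2 called 2 of the 16 lower.

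Markers of some other cells were also higher in KPC-OG, against a background of 17.4% of tested genes that rose and 16.6% that fell. Of 12 macrophage and monocyte markers, 10 rose (median 1.38), with a summed level of 782 to 1096 CPM in KPC-OG and 240 to 461 CPM in KPC. Of 8 fibroblast markers 7 rose (1642 to 4642 CPM in KPC-OG, 983 to 1305 CPM in KPC), and of 8 duct markers 6 rose (608 to 1322 CPM in KPC-OG, 269 to 355 CPM in KPC). All 4 tested of 8 tuft cell markers rose (37.7 to 107 CPM in KPC-OG, 15.4 to 19.6 CPM in KPC). Other lists were mixed. Of 7 tested type 2 innate lymphoid cell markers 2 rose and 2 fell, with a lower sum in KPC-OG (46.9 to 59.5 CPM) than in KPC (61.0 to 75.8 CPM). Of 5 tested mast cell markers 3 rose and 1 fell. Among those tested, 2 of 8 dendritic cell, 2 of 5 neutrophil, 1 of 8 endothelial and 0 of 2 natural killer cell markers rose, and none fell. Of 7 tested spleen red pulp and erythroid markers 3 rose and none fell. Their sum was 107 to 402 CPM in KPC-OG, with KPC-OG 1 lowest, and 42.7 to 108 CPM in KPC. Of 5 tested liver markers 4 rose and none fell. Without KPC-OG 2 and KPC-OG 3, 0 spleen and 2 liver markers were called higher. None of the macrophage, fibroblast, duct and tuft cell lists had a marker at 0 in all KPC libraries. Some genes are in more than 1 list, so the counts are not independent. The innate lymphoid list holds the interleukin genes Il1rl1, Il7r, Il13 and Il5, and shares Kit with the mast cell list. The type 2 response list shares Dclk1, Pou2f3 and Trpm5 with the tuft cell list and Mrc1 with the macrophage list. The part of any of these cells in the rise of Il1rn, Il18, Il33, Il4ra, Il13ra1 and the type 2 genes was not tested.

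Il34 (8:110741829-110805924) encodes a ligand of the CSF-1 receptor and belongs to no interleukin family by structure. It was at 6.97, 5.73, 3.47 and 7.26 CPM in KPC-OG and at 1.15, 2.07, 1.06 and 1.35 CPM in KPC. The groups did not overlap, and Il34 rose by 2.04 ± 0.33 (adjusted p = 0.00162). Protein-coding transcripts held 76.4% of its reads in KPC-OG and 68.7% in KPC. Il1rn, Il4ra and Il34 kept their calls under all 19 alternatives tried, while each of the other 8 called genes lost it under at least 1. Its receptor Csf1r averaged 77.1 ± 12.6 CPM in KPC-OG and 44.5 ± 12.4 CPM in KPC (SD, n = 4 each, log2 fold change 0.79 ± 0.21, adjusted p = 0.0148). The other ligand of that receptor, Csf1, also rose (0.63 ± 0.20, adjusted p = 0.0318), chosen for naming after its value was seen. Csf1r is one of the 12 macrophage markers counted above.

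Il3ra (14:14346275-14356011), the IL-3-binding chain that pairs with the common beta chain, was at 3.23, 3.19, 2.62 and 3.04 CPM in KPC-OG and at 0.955, 1.88, 1.59 and 0.844 CPM in KPC. The groups did not overlap (1.22 ± 0.32, adjusted p = 0.0142). It lost its call without KPC-OG 2 and KPC-OG 3 (adjusted p = 0.0526), with re-centred library sizes (0.14) and on log2(TPM + 1) and log2(TPM + 0.1) (adjusted p = 0.241 and 0.17). Il3 itself had no read, Il5 had 7, 6, 3 and 8 reads in KPC-OG and 0, 1, 1 and 0 reads in KPC, and Il5ra was also too low to test. Of 7 tested partner chains and kin outside the symbol rule, 4 rose and none fell (median 0.98, background 17.4% and 16.6%). They include Csf2ra, the GM-CSF-binding chain, at 14.5 ± 2.2 CPM in KPC-OG and 5.24 ± 1.16 CPM in KPC (SD, n = 4 each, log2 fold change 1.46 ± 0.19, adjusted p = 7.74e-04), and Csf3r, the G-CSF receptor (1.02 ± 0.32, adjusted p = 0.0316). With re-centred library sizes 1 of the 4, Csf2ra, kept its call, and Csf3r also lost it in limma-voom (adjusted p = 0.132) and without KPC-OG 2 and KPC-OG 3 (adjusted p = 0.0823).

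Of 4 tested IL-10 family receptors 1 fell and none rose, and of 5 tested IL-17 receptors 1 rose and none fell. Over all tested genes 17.4% rose and 16.6% fell, so counts this small do not stand out from the background. Il22ra1 (4:135728172-135752140) encodes the chain that makes a cell sensitive to IL-22, and acinar cells are a known site of it in the pancreas. It was at 12.3, 8.29, 17.7 and 7.71 CPM in KPC-OG and at 19.5, 19.5, 31.6 and 23.0 CPM in KPC. All KPC-OG libraries lay below all KPC libraries, with KPC-OG 3 nearest, and the gene fell by 1.03 on the log2 scale (SE 0.28, adjusted p = 0.0181). Without KPC 3 it fell by 0.86 and missed the threshold (adjusted p = 0.0534), and with library sizes alone its sign turned (0.60). The 10 acinar markers, of which 8 fell with a median of -2.19, had their highest KPC-OG sum in KPC-OG 3 too. Within KPC the orders differed. KPC 1 had the highest acinar sum (544500 CPM) with Il22ra1 at 19.5 CPM, and KPC 3 had the highest Il22ra1 (31.6 CPM) with a sum of 357900 CPM. The part of acinar cells in the value of Il22ra1 was not tested. Il10rb, its partner chain shared with the IL-10 receptor, was at 18.6 to 21 CPM in KPC-OG and 14.9 to 19.5 CPM in KPC (0.25 ± 0.12, 95% interval -0.02 to 0.52, adjusted p = 0.142).

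Il22 itself had no read in any library. The soluble IL-22 inhibitor Il22ra2 had 4, 30, 17 and 7 reads in KPC-OG and 0, 1, 0 and 5 reads in KPC and was not tested. Il10ra, the IL-10-binding chain of leukocytes, was at 8.28 to 12.7 CPM in KPC-OG and 2.29 to 9.79 CPM in KPC (0.77 ± 0.41, adjusted p = 0.176). Il10, Il19, Il20, Il20ra and Il24 were too low to test.

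Il17re (6:113458484-113470758), the chain that binds IL-17C on epithelium, was at 4.96, 6.30, 2.03 and 5.63 CPM in KPC-OG and at 1.72, 2.82, 2.12 and 1.86 CPM in KPC. KPC-OG 3 lay within the KPC range and the other KPC-OG libraries above it. The gene rose by 1.16 ± 0.37 (adjusted p = 0.0331), and lost its call under 10 of 18 alternatives, the most of the 11 called genes: leaving out any of KPC-OG 1, KPC-OG 2, KPC-OG 4, KPC 1, KPC 3 or KPC 4 gave adjusted p-values of 0.069 to 0.0933. Of the other receptors, Il17ra, the shared chain, was at 8.86 to 13.8 CPM in KPC-OG and 9.17 to 16.6 CPM in KPC (-0.12 ± 0.22, adjusted p = 0.719), and its IL-17A and IL-17F partner Il17rc gave 0.18 ± 0.47 (adjusted p = 0.802).

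Among the ligands, Il17f gave 0.66 ± 0.59 (adjusted p = 0.421), with 0% of its reads on protein-coding transcripts in either group, so the value is not that of the cytokine's coding transcript, and Il17d -0.53 ± 0.36 (adjusted p = 0.279), both under 2 CPM in every library. Il17a had no read, and Il17b, Il17c and Il25 had none in KPC. Of 8 tested IL-17 pathway genes and targets, 2 rose and 1 fell (median 0.73, background 17.4% and 16.6%). Lcn2, an antibacterial lipocalin, averaged 30.5 ± 7.8 CPM in KPC-OG and 4.25 ± 1.67 CPM in KPC (SD, n = 4 each, log2 fold change 2.82 ± 0.28, adjusted p = 4.65e-04). The neutrophil chemokine Cxcl5 rose by 2.83 ± 0.32 (adjusted p = 5.69e-04), and the adaptor Traf3ip2, known as Act1, fell by 0.50 (SE 0.15, adjusted p = 0.0294), a call lost with re-centred library sizes (adjusted p = 0.21).

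Il6st and Il11ra1 had the highest levels per transcript length of the interleukin genes, and none of the 5 tested IL-6 and IL-12 family receptor chains passed. Per transcript length, Il6st ranked first in both groups, at 48.2 ± 16.8 TPM (the deposited abundance per transcript length, scaled within a library) in KPC-OG and 13.4 ± 2.0 TPM in KPC, and Il11ra1 second, at 40.3 ± 14.3 TPM in KPC-OG and 9.68 ± 0.75 TPM in KPC (SD, n = 4 each). In KPC-OG the next were Il33 at 27.8 ± 11.7 TPM, Il10rb at 27.3 ± 9.5 TPM and Il4ra at 26.7 ± 8.0 TPM, which did not differ beyond the spread of libraries. In KPC the next were Il22ra1 at 7.37 ± 2.10 TPM and Il10rb at 7.08 ± 0.37 TPM, likewise within their spread. Without the TMM factors 91.7% of tested genes were called higher in KPC-OG, so TPM values, which lack them, order genes within a group and do not compare groups. Il1rn stood 6th in KPC-OG and 19th in KPC, Il18 stood 8th and 25th, and Il34 stood 10th and 21st.

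On the TMM scale Il6st, the signalling chain shared by IL-6, IL-11, LIF and oncostatin M, was at 102, 111, 95.8 and 109 CPM in KPC-OG and at 94.9, 99.5, 95.3 and 108 CPM in KPC. Its log2 fold change was 0.07 ± 0.12 (adjusted p = 0.694), with a 95% interval of -0.20 to 0.34. Il11ra1, the IL-11 receptor of fibroblasts, gave 0.18 ± 0.21 (95% interval -0.28 to 0.65, adjusted p = 0.528). It shares sequence with the 3 Il11ra2 copies and overlaps other genes on both strands, so its level is uncertain. Il6ra, named after its value was seen, gave -0.30 ± 0.29 (adjusted p = 0.454). Il23a, a subunit of IL-23, gave 1.37 ± 0.54 (adjusted p = 0.0735) at 0.786 to 1.13 CPM in KPC-OG and 0.169 to 0.796 CPM in KPC. The ligands Il6, Il11, Il12a, Il12b and Il27 and the receptor chains Il12rb1, Il23r, Il31ra and Il11ra2 had too few reads, and Il31 had none. Il6 had 13, 9, 6 and 23 reads in KPC-OG and 4, 1, 0 and 1 reads in KPC. Of 7 tested genes of the wider IL-6 family, 2 rose and none fell (median 0.09, background 17.4% and 16.6%): Cntfr, the CNTF receptor (1.82 ± 0.43, adjusted p = 0.00973), and Clcf1, one of its ligands (1.33 ± 0.42, adjusted p = 0.0335). With re-centred library sizes 0 of the 7 rose and 2 fell.

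Receptor chains of lymphocytes varied more between libraries of 1 genotype than between genotypes. Il2rg, the common gamma chain, was at 2.89, 14.4, 8.51 and 6.94 CPM in KPC-OG and at 0.764, 9.20, 0 and 8.27 CPM in KPC (0.79 ± 0.86, 95% interval -1.18 to 2.75, adjusted p = 0.516). Il2rb, the signalling chain for IL-2 and IL-15, was at 0.731, 6.12, 3.67 and 1.49 CPM in KPC-OG and at 0, 5.82, 0.531 and 5.74 CPM in KPC (-0.07 ± 0.97, adjusted p = 0.966). Both were high in KPC-OG 2, KPC 2 and KPC 4 and low in KPC-OG 1, KPC 1 and KPC 3. Il21r, Il7r and Il27ra, which with Il2rb were named after their values were seen, showed the same high and low KPC libraries. Il21r was at 3.2, 10.9, 6.61 and 4.08 CPM in KPC-OG and at 1.15, 8.26, 1.33 and 6.92 CPM in KPC.

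The same libraries were high and low in lymphocyte markers. The summed level of 10 T cell markers was 6.33, 45.9, 28.9 and 14.6 CPM in KPC-OG and 4.39, 42.1, 3.18 and 38.7 CPM in KPC. That of 10 B cell and follicle markers was 4.29, 95.3, 63.7 and 26.5 CPM in KPC-OG and 2.67, 66.7, 4.25 and 95.6 CPM in KPC. None of the 9 T cell and 10 B cell markers tested passed in either direction, and their medians were 0.16 and 0.15. The part of the number of lymphocytes in a library in the level of these receptor chains was not tested.

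Il16, a chemoattractant stored in lymphocytes, was at 6.00, 14.8, 15.4 and 8.99 CPM in KPC-OG and at 4.96, 13.9, 5.31 and 11.5 CPM in KPC (0.32 ± 0.40, adjusted p = 0.574), high in the same KPC libraries. Il4i1, an amino acid oxidase, gave -0.02 ± 0.58 (adjusted p = 0.986). Of the other genes of the common gamma chain family, Il15 gave 0.16 ± 0.41 (adjusted p = 0.801), Il7 0.52 ± 0.45 (adjusted p = 0.406), and Il15ra, the chain that presents IL-15, 0.41 ± 0.33 (adjusted p = 0.362), where 30.1% of its reads in KPC-OG and 40.5% in KPC were on protein-coding transcripts. Il21 had 3 reads in KPC 2 and none elsewhere, and Il2 and Il9 had no read. The tested genes not yet given, Il2ra, Il9r, Il12rb2, Il17rb, Il17rd and Il20rb, had log2 fold changes of -0.03 to 0.87 and no call, and are named to account for every member.

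**Figure D4:**
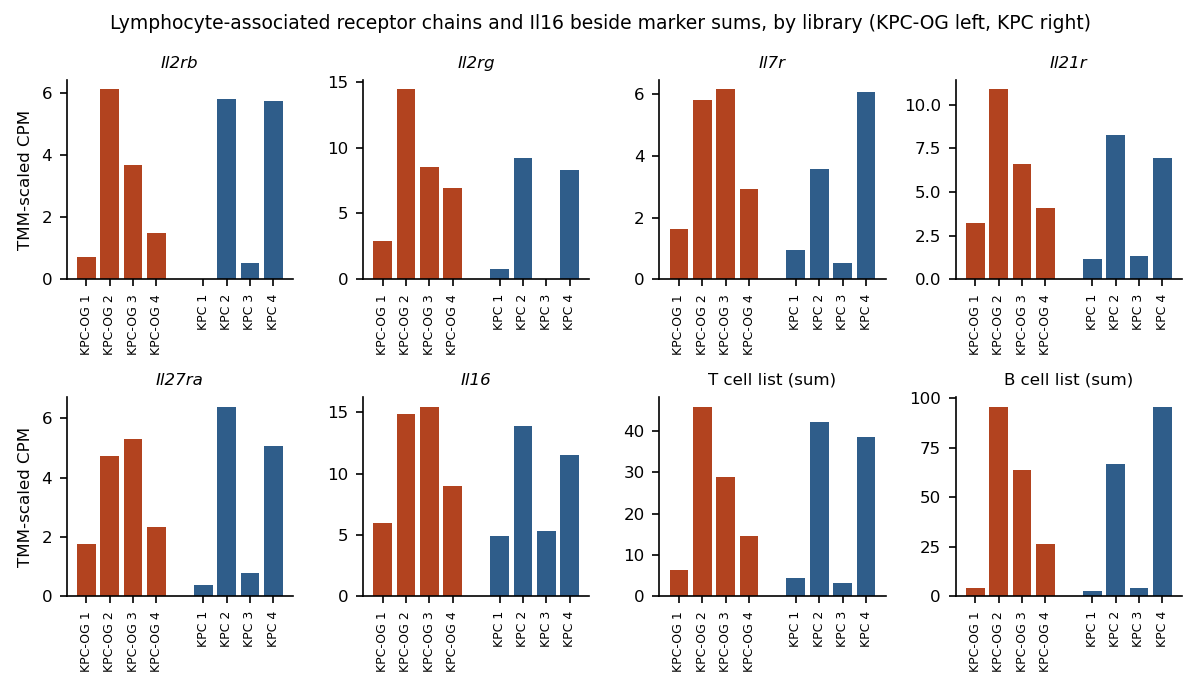
TMM-scaled CPM by library (KPC-OG bars left, KPC bars right) of 5 lymphocyte-associated receptor chains and Il16, beside the summed CPM of the T cell and B cell marker lists. In KPC, libraries 2 and 4 are above libraries 1 and 3 in every panel, and in KPC-OG library 1 is the lowest in every panel.

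More interleukin genes were detected in KPC-OG, where depth was also greater. At least 1 read was counted for 63, 69, 65 and 66 of the 84 genes in KPC-OG and for 44, 57, 49 and 54 in KPC. After every library was thinned to the smallest TMM effective size, the counts were 53, 58, 54 and 51 in KPC-OG and 43, 56, 49 and 52 in KPC. The thinned ranges overlapped. Over all 29621 genes, 18680 to 20062 had a read in KPC-OG and 15072 to 16520 in KPC before thinning. Greater detection in KPC-OG was thus not particular to interleukin genes. The summed level of all 84 genes was 422 to 485 CPM in KPC-OG and 278 to 386 CPM in KPC, and their reads were 0.0481% to 0.107% of gene-assigned reads in KPC-OG and 0.0134% to 0.0236% in KPC.

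**Figure D5:**
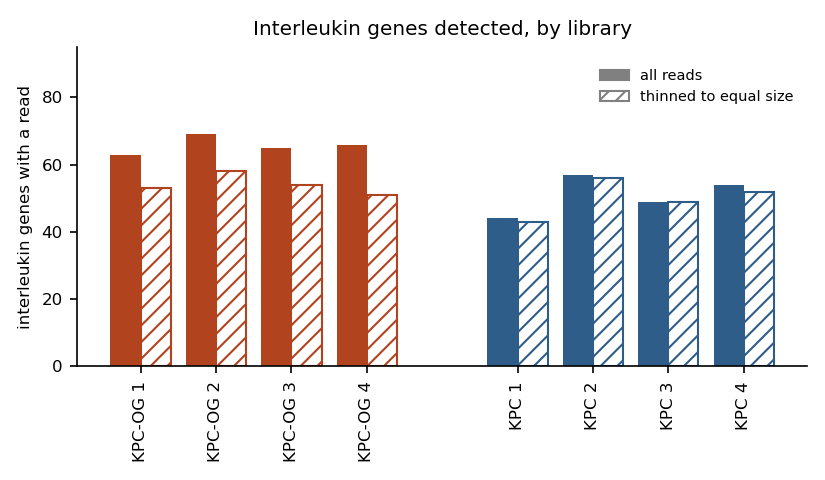
Number of the 84 interleukin genes with at least 1 read in each library (KPC-OG left, KPC right), from all reads (filled) and after thinning to equal effective size (hatched). With all reads, the KPC-OG bars of 63 to 69 are above the KPC bars of 44 to 57, and after thinning the ranges of 51 to 58 and 43 to 56 overlap.

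In counts rounded to whole reads, 11 genes had reads in KPC-OG and none in any KPC library, and none of them was tested. The share of all genes with this pattern was not counted, and fewer genes of every kind were detected in KPC, so the 11 are a description only. Il23r, the specific chain of the IL-23 receptor, had 4, 16, 4 and 8 reads in KPC-OG, a pooled level of 0.266 CPM. The KPC floor of 3 reads over the group was 0.148 CPM. The pooled Il23r level was 1.80 times that floor, and 5.39 KPC reads would have been counted at an equal level. These genes were picked for having no KPC read, and the ratio takes the KPC-OG level as exact and leaves out the spread among libraries. It is thus not a test of a difference. Il1rapl1, with 19 KPC-OG reads in 3 libraries, was at least 1.07-fold higher by the same floor. The other 9 (Il31ra, Il17c, Il10, Il24, Il17b, Il25, Il20ra, Il19 and Il13) had 1 to 16 KPC-OG reads and were under the KPC floor, so their absence in KPC was not detectable as a difference at this depth. Il10 had 0, 3, 5 and 4 reads in KPC-OG, and Il17c reads sit inside the overlapping gene Gm20388.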

How the data were processed

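Whole-pancreas RNA of 4 KPC-OG and 4 KPC libraries was analysed, with groups and replicate numbers from the sample titles. Sailfish 0.6.3 (k-mer length 20, 1000 iterations, bias corrected) was run by the authors on mouse cDNA of Ensembl release 76, per the file headers. They deposited estimated counts, which need not be whole, and TPM values, scaled within each library. STAR 2.0.4b, bcl2fastq, limma and edgeR appear in the submitters' processing notes, without a role for each. The sources used here do not state strand, so overlapping and antisense genes cannot be told apart.

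Of 86127 transcripts, 83827 matched a gene of GENCODE M21. The 2300 without a match, 1.45% to 3.04% of reads in KPC-OG and 3.93% to 4.23% in KPC, were left out. Estimated counts were summed per gene and rounded. The test was edgeR 4.0.16 (R 4.3.3) quasi-likelihood, robust, with TMM, filterByExpr by group and no covariate, over 14267 genes, Benjamini-Hochberg threshold 0.05. Standard errors are the log2 fold change over the root of F. Ratios used the exact two-sided permutation test of 70 arrangements, fewer where a library was left out, on counts with 0.5 added. Floors of 3 reads cover counting error only. Alternatives were DESeq2 1.42.0, limma-voom (limma 3.58.1), other scalings, no filter, thinning to equal depth, limma on log2(TPM + 1) and log2(TPM + 0.1) re-centred on the median gene, no Lars2, leaving out libraries, and a replicate block. Tested on simulated data for this comparison (14267 genes), edgeR recovered 48 of 100 genes planted at 2-fold and 96 of 100 at 4-fold, with 12 unchanged genes among 156 calls. Changes were planted only in better-covered genes, so recovery at low counts, where many interleukin genes lie, was not measured. No pair of libraries agreed within counting noise.

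The members, the 7 pathway and 15 marker lists and the rule for named genes were chosen with earlier results of these data known. The rule named every called member, the 2 most abundant uncalled members of each role by mean TPM, every member the filter left out, and up to 3 called genes per pathway list by smallest adjusted p.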

Additional observations from a re-analysis of the deposited data

Results flagged for a closer look

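Each genotype's 4 values were checked for a library far from the others, for 32 named genes in both groups, 64 checks in all, of which chance flags about 5%. In 2 checks a library stood apart, and both were KPC-OG 3, the KPC-OG library with the fewest reads. Il1f9, an IL-36 cytokine, was at 1.96 CPM in KPC-OG 3 and at 1.34 to 1.40 CPM in the other KPC-OG libraries, a gap of 0.903 of the group's range. Il17rc, a receptor chain for IL-17A and IL-17F, was at 1.18 CPM in KPC-OG 3 and at 3.54 to 3.99 CPM in the others, a gap of 0.842 of the range. Neither gene was called, and the cause was not tested.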

How the results depend on the processing

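The count of interleukin genes that rose was 9 and of those that fell 2. With library sizes only it was 44 and 0, the median gene moved by 1.74, and all 9 tested members with a negative value turned positive, which a shift of that size gives by construction. The 6 named by the rule were Il1rap (1.0), Il22ra1 (0.60), Il18bp (1.65), Il17d (1.2), Il17ra (1.6) and Il4i1 (1.61). The fits on log2(TPM + 1) and log2(TPM + 0.1) gave 4 and 5 that rose, and the second gave 1 that fell, as did library sizes re-centred on the median gene and the fit without KPC-OG 2 and KPC-OG 3 (1 each). Leaving out each library in turn gave 8 to 11 that rose and 1 to 3 that fell, with the lowest count of genes that fell without KPC 3, where Il22ra1 was lost. Without KPC-OG 3, Il1r1 and Il17rd joined those that rose and Il6ra those that fell. The difference in log2 ratio ran from 0.61 to 1.14 for Il1rn to Il1b and from -2.85 to -2.24 for Il18bp to Il18 over the same omissions. Both passed without KPC-OG 3, each at the smallest p possible there, and under no other alternative tried. Il18 and Il17re were left out by the filter after thinning. The cause of these changes was not tested, except that library sizes only removes the TMM factors.

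Replicate numbers did not pair the libraries: correlations of same-numbered deviations were 0.22, 0.27, -0.01 and -0.01. With a replicate block 10 genes rose (background 17.4%; Il10ra added, 0.93, adjusted p = 0.0457) and 2 fell (16.9%). Low KPC depth limits the genes under about 1 CPM, where 1 KPC read is worth 0.169 to 0.265 CPM.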
